A study of Homo sapiens with 414 samples.

Results

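The genes described here encode the proteasome, the particle that degrades proteins marked with ubiquitin, and its immune form. They are 38 of the 36135 genes in the count table, named by symbol (PSMA, PSMB, PSMC, PSMD and PSME genes) and not by how they behaved. Of these, 5 are the immune subunits (PSMB8, PSMB9, PSMB10, PSME1 and PSME2) and 33 are constitutive. They were measured in LNCaP, an androgen-responsive prostate carcinoma cell line, in single cells captured on a microfluidic plate for large cells and sequenced one by one. The knockdown arm was transfected with an siRNA from IDT against SULT2B1, a sulfotransferase that adds sulfate to cholesterol and related sterols, and the control arm with a non-targeting siRNA from Dharmacon. Cells were harvested 48 hours after transfection. Both arms were run in batches 1, 2 and 3, with 66, 65 and 61 knockdown cells and 76, 66 and 67 control cells. The knockdown rests on 1 siRNA product, and each arm used its own supplier, so the loss of SULT2B1 and the choice of siRNA cannot be told apart. The labels do not say whether batches were separate cultures, so p-values over batches measure the spread between them, which may be technical.

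The core of the proteasome is a barrel made of alpha rings, which gate the entrance, around beta rings, which hold the cutting sites of PSMB5, PSMB6 and PSMB7. The regulatory cap has a base of ATPases (PSMC genes) that unfold the substrate and further subunits (PSMD genes) that bind and remove ubiquitin. In cells exposed to interferon, newly made PSMB8, PSMB9 and PSMB10 take the places of PSMB5, PSMB6 and PSMB7 in new particles, and the activator PA28, built from PSME1 and PSME2, can bind in place of the cap. These immune forms change which peptides are cut, and the peptides are carried by the TAP transporter to MHC class I molecules.

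The stretches of 250 bases before the RefSeq start (GRCh38.p14) of PSMB9, PSMB10, PSME1 and PSME2, the immune genes whose libraries did not overlap between the arms, and of TAP1, the gene beside PSMB9, are shown because interferon-responsive elements are known to lie in such stretches. Capitals mark 2 motifs, GAAANNGAAA (a core of the interferon-stimulated response element) and GGGNNTTTCC (an NF-kB-like site), searched on both strands. Each sequence runs 5′ to 3′ towards its own gene.
PSMB9 (chr6:32853942-32854191, plus strand): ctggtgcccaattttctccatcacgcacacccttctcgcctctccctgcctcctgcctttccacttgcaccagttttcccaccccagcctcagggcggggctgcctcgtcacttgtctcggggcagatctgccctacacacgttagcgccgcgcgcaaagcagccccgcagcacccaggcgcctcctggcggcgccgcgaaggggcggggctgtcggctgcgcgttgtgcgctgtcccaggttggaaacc
TAP1 (chr6:32853705-32853954, minus strand): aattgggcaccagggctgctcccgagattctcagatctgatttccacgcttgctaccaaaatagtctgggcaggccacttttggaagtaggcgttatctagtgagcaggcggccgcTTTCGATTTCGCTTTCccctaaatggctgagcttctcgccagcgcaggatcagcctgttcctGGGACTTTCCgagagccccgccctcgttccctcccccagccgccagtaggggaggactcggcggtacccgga
PSMB10 (chr16:67936851-67937100, minus strand): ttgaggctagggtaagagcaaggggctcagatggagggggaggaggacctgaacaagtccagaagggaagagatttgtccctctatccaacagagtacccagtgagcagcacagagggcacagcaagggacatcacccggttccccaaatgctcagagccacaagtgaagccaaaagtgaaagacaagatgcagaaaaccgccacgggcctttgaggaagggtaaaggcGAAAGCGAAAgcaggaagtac
PSME2 (chr14:24146611-24146860, minus strand): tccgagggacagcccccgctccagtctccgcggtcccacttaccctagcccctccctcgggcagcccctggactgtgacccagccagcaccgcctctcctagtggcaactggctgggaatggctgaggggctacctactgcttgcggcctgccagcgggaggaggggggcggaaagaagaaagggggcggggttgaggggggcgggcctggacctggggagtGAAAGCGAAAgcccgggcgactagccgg
PSME1 (chr14:24135944-24136193, plus strand): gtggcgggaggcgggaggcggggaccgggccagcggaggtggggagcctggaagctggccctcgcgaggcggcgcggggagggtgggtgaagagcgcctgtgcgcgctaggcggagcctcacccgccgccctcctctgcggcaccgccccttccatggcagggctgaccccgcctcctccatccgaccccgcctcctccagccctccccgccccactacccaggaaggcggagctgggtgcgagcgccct
PSMB10 and PSME2 held the same letters, GAAAGCGAAA, starting 21 and 28 bases before their starts. The windows of PSMB9 and PSME1 held neither motif. PSMB9 and TAP1 face away from each other, with 487 bases between their starts. The TAP1 window held 2 overlapping matches of GAAANNGAAA on its other strand, their nearest bases 354 and 360 bases before the PSMB9 start, and GGGACTTTCC at 416 bases before it. These matches lie outside the 250-base window of PSMB9, so the shares of windows below give no background for their distance from PSMB9. GAAANNGAAA was present in 3.02% of 35116 windows of all genes, in 2 of 5 immune genes and in 2 of the 28 constitutive genes with a window (PSMA4 and PSMB4). GGGNNTTTCC was present in 1.73% of all windows, in 0 of 5 immune genes and in 1 of the 28 constitutive genes (PSMD6). Further motifs were searched. Of these TTCNNNGAA, a GAS-like motif, was present in 6.57% of all windows, in 1 of 5 immune genes (PSMB8) and in 5 of the 28 constitutive genes. GGGCGG, an SP1-like motif, was present in 42.6% of all windows, in 3 of 5 immune genes and in 19 of the 28 constitutive genes. TGACNNNGC, an antioxidant-response-like motif, was present in 10.9% of all windows. It was found in 3 of 5 immune genes (PSMB9, PSME1 and PSME2) and in 6 of the 28 constitutive genes. Windows were found for 33 of 38 genes, 40 windows in all, so shares of windows and counts of genes are not directly comparable. A match describes letters and does not show binding.

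The 401 cells had between 169244 and 2353816 reads each, with a median of 1150826. Reads of all cells from 1 arm and batch were added up, giving 6 libraries of 71630108 to 84359044 reads, and levels are given as CPM, read counts scaled to library size with TMM. The targeted gene SULT2B1 had 13, 21 and 0 reads in knockdown libraries, against 152, 109 and 332 in control libraries. Its log2 fold change of -4.13 (SE 1.43) had an edgeR adjusted p of 0.268, so the difference did not pass the test although no library overlapped. All 10 luminal prostate markers had reads, with a summed level of 2719 to 4029 CPM in knockdown libraries and 5056 to 6114 CPM in control libraries. Of these, KLK3 and KLK2 were lower in knockdown, with edgeR adjusted p of 0.0416 and 0.0446 that became 0.154 and 0.0703 with batch as a block; leaving out any 1 library also ended both calls (edgeR adjusted p of 0.0612 to 0.160 for KLK3 and 0.0931 to 0.153 for KLK2). The part of this luminal difference in the results below was not tested. Blood cell markers summed to between 5 and 59 reads in a knockdown library and between 1 and 23 in a control library. Among them PTPRC, the defining leukocyte gene, had 3 reads in all and CD14 had 0. Mitochondrial reads exceeded 20% in 8 knockdown cells and 35 control cells, and leaving these cells out changed no call among the 38 genes.

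Of the immune subunits, 4 of 5 stood higher in every knockdown library, and 2 passed the test; of the constitutive ones, 0 passed. In edgeR's quasi-likelihood test, 2 of the 38 genes passed an adjusted p of 0.05, PSMB9 and PSME1, both higher in knockdown. Of all 20326 genes tested, 0.394% were called higher and 0.384% lower. All 38 genes passed the filter on low counts, 0 were called lower, and 29 had a log2 fold change above 0, against 50.4% of all genes tested. The median log2 fold change was 0.78 for the 5 immune genes and 0.15 for the 33 constitutive genes, against 0.01 over all genes tested. In 4 of the 5 immune genes every knockdown library stood above every control library, which held for 10.5% of all genes tested. At an unadjusted p under 0.05 in edgeR, 11 of the 33 constitutive genes stood out, all higher in knockdown, as did 2739 of the 20326 genes tested in either direction; after adjustment 0 of the 33 were left, and 1 each by DESeq2 (PSMA4) and by limma on equally weighted cells (PSME3). Libraries did not overlap, with knockdown higher, for 13 of the 33 constitutive genes, and 14.5% of the genes averaging at least 50 CPM behaved so. With batch as a block in edgeR, 0 of the 38 genes passed, and of all genes 0.128% were called higher and 0.059% lower. In that fit 12 of the 38 had an unadjusted p under 0.05, as did 2535 of the 20326 genes tested in either direction. DESeq2 called 4 of the 38 higher, and of all genes 3.28% higher and 3.89% lower. With each cell weighted equally, limma called 5 of the 38 higher, and of all genes 3.37% higher and 2.47% lower.

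**Figure D1:**
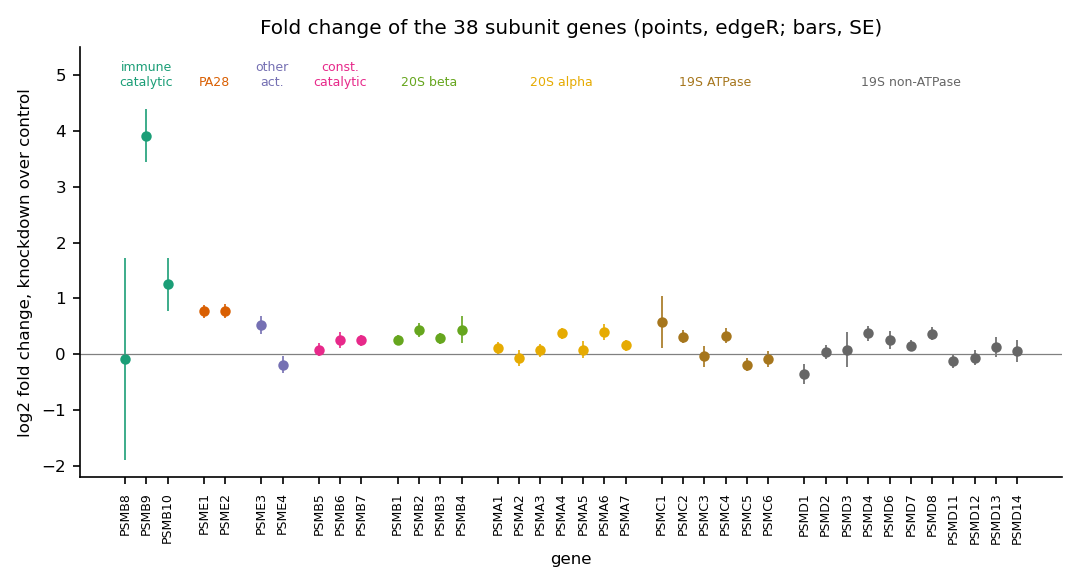
Log2 fold change of each of the 38 genes (vertical axis, edgeR, knockdown over control) with its SE as a bar, grouped by role along the horizontal axis. PSMB9 stands at 3.91, PSME1 and PSME2 at 0.77 and 0.78, PSMB8 has an SE of 1.81, and the constitutive genes lie between -0.35 and 0.58.

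PSMB9, the immune subunit that replaces PSMB6 and sits on chromosome 6 in the MHC class II region (chr6:32844136-32859585, plus strand), had the largest difference of the 38. It had 13.0, 16.8 and 10.9 CPM in knockdown libraries, against 0.585, 0.752 and 1.35 CPM in control libraries. The lowest knockdown library was several times above the highest control library. As reads, these were 1038, 1241 and 931 in knockdown, against 43, 55 and 105 in control. The mean was 13.5 ± 2.99 CPM in knockdown and 0.897 ± 0.404 CPM in control (SD, n = 3 each), a log2 fold change of 3.91 (SE 0.47, edgeR adjusted p = 0.0155). The edgeR adjusted p was 0.102 with batch as a block. Leaving out 1 library gave edgeR adjusted p-values of 0.0360 to 0.0847 with log2 fold changes of 3.67 to 4.33, and only the fit without control batch 3 passed.

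PSMB10 (chr16:67934502-67937087, minus strand) encodes the immune subunit that replaces PSMB7. It had 7.52, 6.50 and 10.6 CPM in knockdown libraries, against 2.45, 5.46 and 2.42 CPM in control libraries. No library overlapped, but control batch 2 lay close to knockdown batch 2. The means were 8.20 ± 2.14 CPM in knockdown and 3.44 ± 1.74 CPM in control (SD, n = 3 each). The log2 fold change of 1.25 (SE 0.47) did not pass, with an edgeR adjusted p of 0.305. In the fit that weights each cell equally, on the mean of log2(CPM + 1) per cell, limma gave PSMB10 a difference of 1.05 and an adjusted p of 0.0322. PSMB10 shares 644 of its 1853 exon bases with AC040162.1 on the same strand. How reads of these bases were counted is not given in the sources used here, so the PSMB10 level is uncertain.

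PSMB8 (chr6:32840717-32844703, minus strand), which replaces PSMB5, gave no stable difference. It had 102, 168 and 160 reads in knockdown libraries, against 417, 6 and 0 in control libraries. The control libraries lay on both sides of the knockdown ones. A single control cell held 250 of the 417 reads of control batch 1, or 60.0%. The log2 fold change was -0.09 (SE 1.81, edgeR adjusted p = 0.993) and became 5.40 without control batch 1 (edgeR adjusted p = 0.313). PSMB8 and PSMB9 lie on opposite strands and share 139 exon bases, and PSMB8 shares 618 with PSMB8-AS1; whether strand was used in counting is not given in the sources used here, so reads of these bases cannot be assigned.

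**Figure D2:**
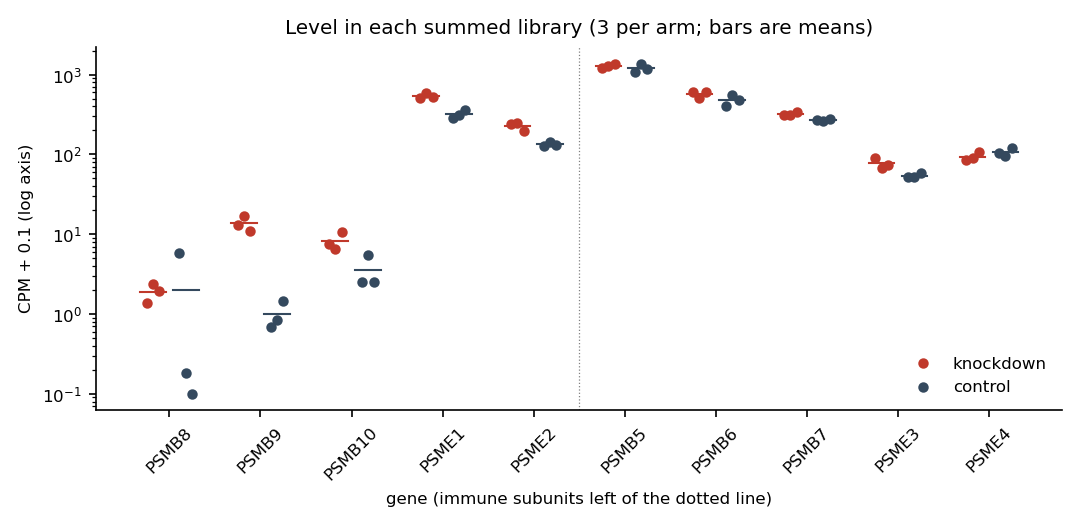
CPM + 0.1 in each library on a log axis for the 5 immune genes (left of the dotted line) and 5 constitutive genes (right), with 3 knockdown libraries left of 3 control libraries and bars at the means. The arms do not overlap for PSMB9, PSMB10, PSME1 and PSME2, and the control points of PSMB8 spread from 0 to 5.67 CPM.

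The PA28 genes, neighbours on chromosome 14, had nearly the same log2 fold change. PSME1 (chr14:24136158-24138967, plus strand), the PA28 alpha subunit, had 515, 583 and 529 CPM in knockdown libraries, against 285, 313 and 355 CPM in control libraries. The arms were well apart, and the means of 542 ± 36.0 CPM in knockdown and 318 ± 35.2 CPM in control differed by 1.71-fold (SD, n = 3 each). The log2 fold change was 0.77 (SE 0.12, edgeR adjusted p = 0.0378). The call was lost with batch as a block (edgeR adjusted p = 0.117) and without any 1 of the 6 libraries (edgeR adjusted p from 0.0661 to 0.151), with log2 fold changes of 0.69 to 0.86.

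PSME2 (chr14:24143362-24147570, minus strand), the PA28 beta subunit, had 242, 248 and 196 CPM in knockdown libraries, against 127, 144 and 130 CPM in control libraries. Again no library overlapped, and the means were 229 ± 28.4 CPM in knockdown and 134 ± 9.06 CPM in control (SD, n = 3 each). The log2 fold change of 0.78 (SE 0.13) just missed the threshold with an edgeR adjusted p of 0.0535, while DESeq2 gave an adjusted p of 6.84e-05. PSME2 reads were 42.2 ± 4.95% of PSME1 reads in knockdown and 42.4 ± 4.94% in control (SD, n = 3 each). Reads assigned to 6 processed pseudogenes of PSME2 made up 25.4% of the reads of gene and pseudogenes together. Adding them left the log2 fold change at 0.78 (0.775, edgeR adjusted p = 0.0512), and PSME2P2 itself had 3338, 3655 and 3438 reads in knockdown, against 1663, 2161 and 1970 in control. Across cells within a library, PSME1 and PSME2 levels had rank correlations of 0.59, 0.47 and 0.49 in knockdown and 0.21, 0.32 and 0.29 in control; cells of a library share depth and preparation.

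The ratio of each immune catalytic subunit to the one it replaces is independent of library size. PSMB9 reads were 2.17%, 3.26% and 1.77% of PSMB6 reads in knockdown libraries, against 0.146%, 0.136% and 0.279% in control libraries. The means differed 12.8-fold, and 20.3-fold when the cell with the most PSMB9 reads was left out of each library. PSMB10 was 2.41%, 2.11% and 3.11% of PSMB7 in knockdown, against 0.898%, 2.11% and 0.873% in control, so batch 2 gave the same rounded ratio in both arms. PSMB8 was 0.106%, 0.175% and 0.138% of PSMB5 in knockdown, against 0.521%, 0.00596% and 0% in control. Summed, the 3 immune subunits were 1.03%, 1.20% and 1.01% of the 3 constitutive ones in knockdown, against 0.495%, 0.288% and 0.196% in control. Per kilobase of exon, PSMB6 mRNA stood 90.1-fold above PSMB9 in knockdown cells and 1133-fold above it in control cells, so the constitutive mRNA remained far more abundant in both arms. PSME1 and PSME2 together were 23.2%, 26.6% and 21.6% of the 7 alpha subunits in knockdown, against 14.5%, 15.7% and 17.0% in control. These ratios are descriptions, with no test.

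**Figure D3:**
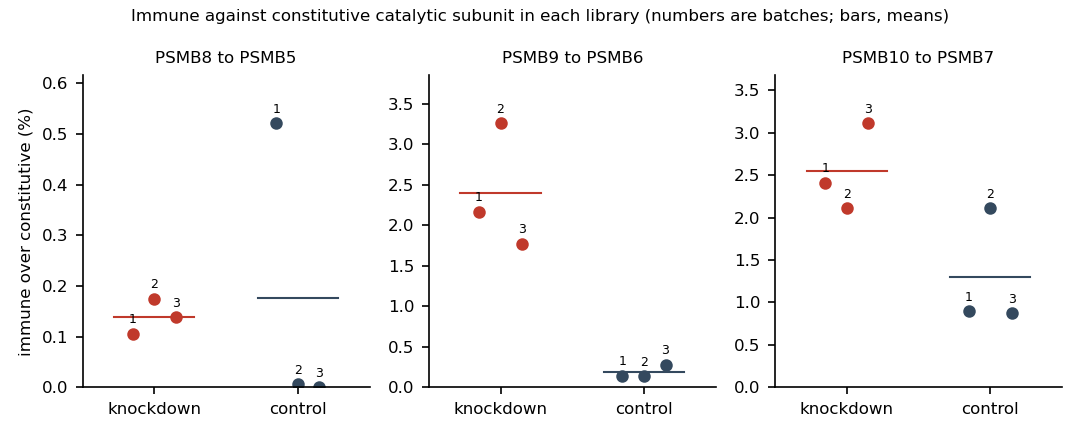
Reads of the immune catalytic subunit as a percentage of those of the constitutive subunit it replaces, in each library, with numbers for batches and bars for means. The PSMB9 to PSMB6 ratio lies between 1.77% and 3.26% in knockdown and between 0.136% and 0.279% in control, while the other ratios overlap between the arms.

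Single cells showed how the summed levels were made up. PSMB9 was read in 32 of 66, 21 of 65 and 24 of 61 knockdown cells, against 3 of 76, 5 of 66 and 4 of 67 control cells. That is 40.0 ± 8.11% of knockdown cells and 5.83 ± 1.82% of control cells (SD, n = 3 each), a gap of 34.2 percentage points with a two-sided exact permutation p of 0.1, the smallest that 3 against 3 allows. After thinning every cell to 100000 reads, PSMB9 was read in 27.0 ± 6.97% of knockdown cells and 3.38 ± 0.971% of control cells. Among cells with a read, the median PSMB9 level was 26.6 CPM over 77 knockdown cells and 10.8 CPM over only 12 control cells, a difference that was not tested. In each knockdown batch most cells had no PSMB9 read. The highest single cell held 10.02%, 40.5% and 27.0% of a knockdown library's PSMB9 reads, and 53.5%, 65.5% and 49.5% of a control library's.

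The other immune genes were spread over cells in different ways. PSMB10 was read in 71.6 ± 7.61% of knockdown cells and 47.8 ± 13.7% of control cells (SD, n = 3 each, exact permutation p = 0.1, and 0.2 after thinning). PSMB8 was read in 6, 10 and 5 knockdown cells and in 7, 3 and 0 control cells of the 3 batches, where 0 of 67 cells allows a share of cells with a read of up to 4.48% by the limit of 3 counts, and up to 5.36% by the exact 95% interval. PSME1 was read in nearly every cell, 99.5% in knockdown and 99.1% in control, with a median of 525 CPM in knockdown cells and 274 CPM in control cells that had a read. PSME2 was read in 99.5% of knockdown cells and 96.4% of control cells, with medians of 217 CPM in knockdown cells and 116 CPM in control cells that had a read. Reads carry no molecular identifiers, so intervals cover counting error only.

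**Figure D4:**
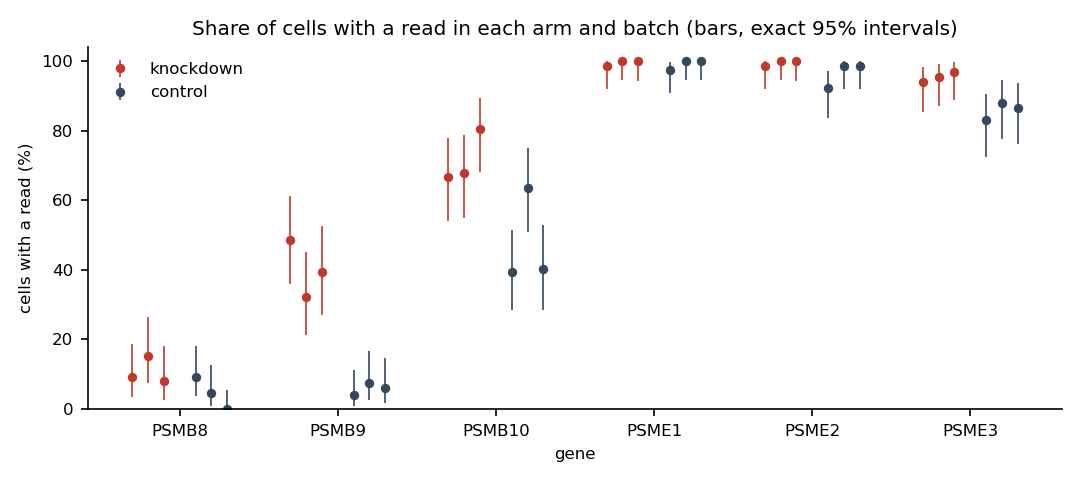
Percentage of cells with at least 1 read of each gene in every arm and batch (points) with exact (Clopper-Pearson) 95% intervals, knockdown left of control. PSMB9 is read in 32.3% to 48.5% of knockdown cells and 3.95% to 7.58% of control cells, and PSME1 and PSME2 are read in at least 92.1% of cells in every library.

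Within the knockdown libraries, PSMB9 was read more often in cells that also had a read of TAP1, its divergent neighbour and a subunit of the peptide transporter. The shares were 61.0%, 42.2% and 48.6% of cells with TAP1, against 28%, 10% and 25% of cells without it. Their rank correlations over cells were 0.47, 0.46 and 0.34. With the mean log2(CPM + 1) of 6 interferon-response genes (IFIT1, IFIT2, IFIT3, IFI6, RIGI and ISG15), rank correlations over the cells of each knockdown library were 0.23, 0.40 and 0.26 for PSMB9, and 0.39, 0.30 and 0.26 for PSME1. For PSME2 they were 0.32, 0.23 and 0.26, for PSMB8, read in few cells, 0.15, 0.29 and 0.07, and for PSMB10 0.14, 0.35 and -0.13. For PSMB6, the counterpart of PSMB9, they were 0.09, 0.06 and -0.34. For PSMB5 they were -0.07, -0.12 and -0.27, and for PSMB7 -0.04, -0.15 and -0.23. PSMB10 and PSMB6 thus held values of either sign. The other immune genes were positive in every knockdown library, and PSMB5 and PSMB7 were negative in every one. These are weak to moderate relations among cells that share a library and are given as a description.

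The constitutive catalytic subunits PSMB5, PSMB6 and PSMB7, which carry the chymotrypsin-like, caspase-like and trypsin-like sites, did not pass the test. PSMB5 had 1207, 1298 and 1349 CPM in knockdown libraries, against 1088, 1376 and 1168 CPM in control libraries, a log2 fold change of 0.09 (SE 0.11, edgeR adjusted p = 0.838). PSMB6 had 598, 514 and 613 CPM in knockdown, against 400, 552 and 485 CPM in control, and PSMB7 had 312, 308 and 341 CPM in knockdown, against 273, 258 and 277 CPM in control. The arms overlapped for PSMB5 and PSMB6 and not for PSMB7, whose log2 fold change was 0.25 (SE 0.10, edgeR adjusted p = 0.330). The structural beta subunits PSMB1, PSMB2, PSMB3 and PSMB4, which do not cut, had log2 fold changes of 0.25 to 0.44. None was called by edgeR or DESeq2, and 3 of 4 had an unadjusted edgeR p under 0.05. PSMB2 had 442, 361 and 477 CPM in knockdown, against 298, 312 and 338 CPM in control, without overlap (0.43, SE 0.13, edgeR adjusted p = 0.199). PSMB4 had 868, 1245 and 976 CPM in knockdown and 515, 948 and 810 CPM in control, with overlap (0.44, SE 0.24, edgeR adjusted p = 0.491).

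Of the 7 alpha subunits, 6 had a log2 fold change above 0, with a median of 0.11. In edgeR 0 were called and 2 (PSMA4 and PSMA6) had an unadjusted p under 0.05. PSMA4 had the smallest adjusted p of all 33 constitutive genes. It had 1037, 1044 and 1032 CPM in knockdown libraries, against 736, 784 and 878 CPM in control libraries. The knockdown libraries lay within a narrow range above all controls, with a log2 fold change of 0.38 (SE 0.10, edgeR adjusted p = 0.138; DESeq2 adjusted p = 0.0357). PSMA6 had 66.4, 61.5 and 66.1 CPM in knockdown, against 44.8, 50.6 and 51.6 CPM in control (0.40, SE 0.15, edgeR adjusted p = 0.299). Its processed pseudogenes held 66.0% of the summed reads, almost all of them PSMA6P1, so the gene's own level is uncertain; with them added the log2 fold change was 0.41.

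The cap held genes in both directions, with 11 of 17 log2 fold changes above 0 and 6 below. Every knockdown library stood above every control library for 5 of the 17, and below for 2. Over all genes tested these shares were 10.5% and 10.1%. Of the 6 ATPases, 3 had log2 fold changes above 0 and 3 below, and of the 11 other cap subunits 8 lay above 0 and 3 below. None was called by edgeR or DESeq2, and 2 of each group had an unadjusted edgeR p under 0.05, namely PSMC2, PSMC4, PSMD4 and PSMD8, all higher in knockdown. PSMC1 had the highest value, 0.58 (SE 0.46, edgeR adjusted p = 0.681), from 7.43, 4.44 and 3.54 CPM in knockdown libraries and 2.56, 3.60 and 4.16 CPM in control libraries, which overlapped. Its processed pseudogenes, mainly PSMC1P1, held 95.8% of the summed reads, and with them added the log2 fold change was 0.18. PSMC1 also shares 4671 exon bases with NRDE2 on the opposite strand. At the other end, PSMD1, a scaffold subunit of the cap, had 173, 156 and 167 CPM in knockdown and 175, 266 and 192 CPM in control, without overlap (-0.35, SE 0.17, edgeR adjusted p = 0.445). PSMC5, an ATPase, had 201, 178 and 199 CPM in knockdown and 214, 234 and 207 CPM in control (-0.18, SE 0.11, edgeR adjusted p = 0.560). PSMC5 and PSMD1 were the 2 of 38 genes with every knockdown library below every control library, where the share was 10.1% over all genes tested and 16.8% over genes averaging at least 50 CPM. PSMC5 shares 874 exon bases with FTSJ3 and PSMD1 shares 559 with HTR2B, each on the opposite strand. Reads of these bases cannot be assigned either. PSMD11 (-0.12) and PSMC6 (-0.08) overlapped between the arms, and their direction reversed when each cell was weighted equally. In that fit the median of the constitutive genes was 0.49, with 30 of 33 above 0, against a median of 0.04 over all genes tested. It averages log2(CPM + 1) over cells, so cells without a read and cells over 20% mitochondrial reads count in full. In edgeR, leaving out the cells over 20% mitochondrial reads gave a constitutive median of 0.105, against 0.152 with them.

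**Figure D5:**
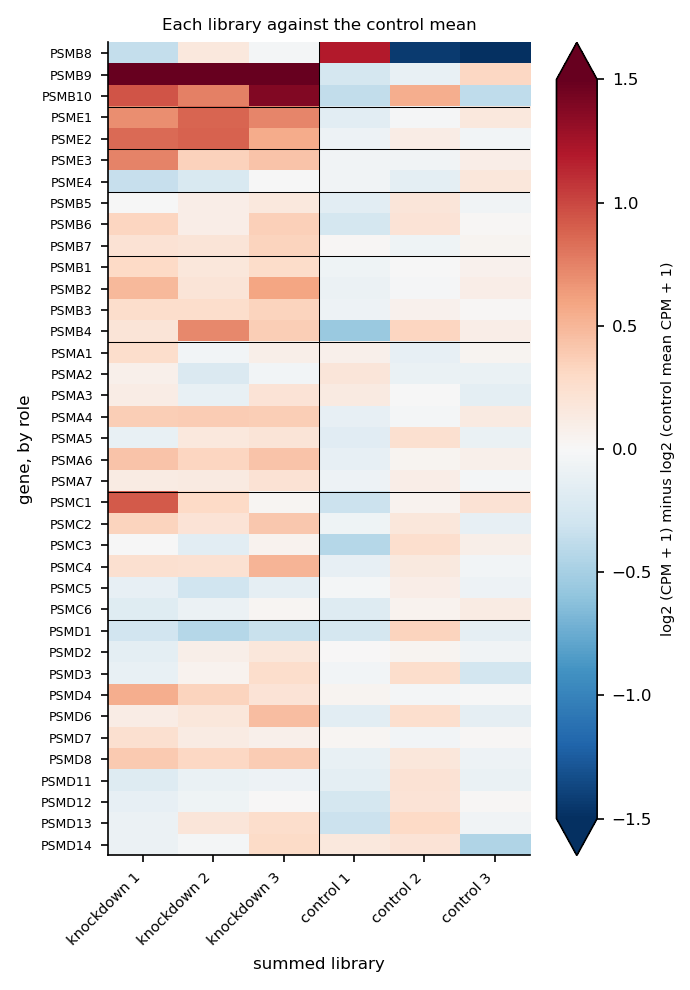
Each library's log2(CPM + 1) minus that of the control mean, for the 38 genes in rows by role, with 3 knockdown libraries left of 3 control libraries, with colours capped at the ends of the scale. PSMB9, PSMB10, PSME1 and PSME2 are above the control mean in all 3 knockdown libraries, and PSMB8 is highest in control batch 1.

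The other activators are PSME3 and PSME4, and neither passed the test. PSME3, the nuclear PA28 gamma, had 90.8, 68.3 and 72.8 CPM in knockdown libraries, against 51.7, 51.9 and 57.6 CPM in control libraries. The arms did not overlap, with a log2 fold change of 0.53 (SE 0.17, edgeR adjusted p = 0.219), and limma on equally weighted cells gave an adjusted p of 0.0385. It was read in 95.3 ± 1.39% of knockdown cells and 85.8 ± 2.58% of control cells (SD, n = 3 each, exact permutation p = 0.1). PSME4, which encodes the large activator PA200, had 83.9, 91.2 and 106 CPM in knockdown and 103, 96.7 and 121 CPM in control, with overlap (-0.19, SE 0.15, edgeR adjusted p = 0.689).

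Genes that build or supply the particle gave no calls in edgeR. Of 9 assembly chaperones, 0 passed by edgeR or DESeq2 and POMP had an unadjusted p under 0.05 in each, with a median log2 fold change of 0.20; PSMG3 was at 0.49 and PSMG4 at -0.38. Of 12 other subunits and regulators 10 were tested and 0 passed in edgeR (2 at an unadjusted p under 0.05, and UCHL5 by DESeq2 after adjustment). UCHL5, a deubiquitinase of the cap, had the smallest adjusted p of them (79.1, 45.8 and 59.4 CPM in knockdown, against 142, 99.0 and 89.7 CPM in control; log2 fold change -0.85, SE 0.26, edgeR adjusted p = 0.204). Of 6 regulators of proteasome transcription 0 passed by edgeR or DESeq2, also without adjustment, among them NFE2L1, which drives proteasome genes when degradation fails (0.37, SE 0.21, edgeR adjusted p = 0.516), and DDI2, the protease that activates it (-0.50, SE 0.33, edgeR adjusted p = 0.601). Of 10 ubiquitin and shuttle genes 0 passed in edgeR (2 at an unadjusted p under 0.05, and VCP by DESeq2 after adjustment), with VCP, an unfolding ATPase, at 0.40 and the ubiquitin gene UBB at 0.39.

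Genes that act on or carry the peptides included called ones. Of 15 genes of peptide supply and class I loading, 2 were called higher and 0 lower, against 0.394% and 0.384% of all genes tested. In this list 13 lay above 0, with a median log2 fold change of 0.96. B2M, the light chain of class I molecules, had 1897, 1767 and 1501 CPM in knockdown libraries, against 896, 870.1 and 777 CPM in control libraries. The arms were far apart, with a log2 fold change of 1.02 (SE 0.12, edgeR adjusted p = 0.0126, and 0.0327 with batch as a block). TAPBP, which bridges TAP and class I molecules, had 209, 249 and 238 CPM in knockdown, against 113, 143 and 124 CPM in control (0.87, SE 0.13, edgeR adjusted p = 0.0410, and 0.0854 with batch as a block). Without cells over 20% mitochondrial reads its edgeR adjusted p was 0.0586. Leaving out any 1 library other than knockdown batch 3 ended the B2M call (edgeR adjusted p of 0.0604 to 0.0727), and leaving out any 1 library ended that of TAPBP (0.0668 to 0.164). The trimming peptidase ERAP2 (2.06, SE 0.41, edgeR adjusted p = 0.0810) and TAPBPL (1.68, SE 0.71, edgeR adjusted p = 0.367) did not pass. TAP1, named after its values were seen, had 19.4, 21.2 and 23.2 CPM in knockdown, against 6.90, 8.63 and 10.5 CPM in control (1.29, SE 0.27, edgeR adjusted p = 0.0930). TAP2, the other subunit of the transporter, also named after its values were seen, had 7.11, 8.48 and 12.6 CPM in knockdown, against 8.36, 12.5 and 8.51 CPM in control, with overlap (-0.06, SE 0.35, edgeR adjusted p = 0.972).

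Of 16 regulators of the immune subunits, 2 were called higher and 0 lower, against 0.394% and 0.384% of all genes tested. IRF9, the DNA-binding subunit of the ISGF3 complex and one of those called, had 7.14, 8.35 and 2.70 CPM in knockdown libraries, against 0.122, 0.219 and 0.129 CPM in control libraries (5.26, SE 0.70, edgeR adjusted p = 0.0228). With batch as a block its edgeR adjusted p was 0.0988. Leaving out any 1 library but knockdown batch 3 also ended the call (edgeR adjusted p of 0.0771 to 0.117). IRF1, which is known to act on the PSMB9 and TAP1 promoter, had 17.8, 24.9 and 20.7 CPM in knockdown and 1.77, 0.0410 and 0.451 CPM in control, with no overlap (4.81, SE 1.08, edgeR adjusted p = 0.108). Its log2 fold change was 6.40 without control batch 1 and 4.25 without control batch 2. JAK2, a kinase of the interferon gamma receptor, had a log2 fold change of 1.71 (SE 0.33, edgeR adjusted p = 0.0802). NLRC5, an activator of class I genes named after its values were seen, had 10.6, 9.45 and 6.71 CPM in knockdown and 1.57, 1.04 and 0.348 CPM in control (3.18, SE 0.62, edgeR adjusted p = 0.0802). In a list of 12 interferon-response genes, 11 were called higher, against 0.394% of all genes tested. That list was chosen with earlier results of these data known, so the count is a description only. IFNB1, which encodes interferon beta, had 2078, 1519 and 2463 reads in knockdown and 0 in each control library. RSAD2, CXCL11 and IFNB1 had 0 reads in every control library, so they passed the filter on low counts only through the knockdown libraries. The control libraries alone would also have failed that filter for IRF9 (9, 16 and 10 reads) and IRF1 (130, 3 and 35 reads). The same held for CXCL10 (56, 157 and 0 reads), IFIT3 (165, 242 and 6 reads) and OAS2 (5, 0 and 0 reads). The count of 2 called regulators, which includes IRF9, is therefore also a description only.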

How the data were processed

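LNCaP cells were transfected with SULT2B1 or non-targeting siRNA, and after harvest single cells were captured on a Fluidigm C1 plate. Capture sites with 0 or several cells and dead cells were excluded under the microscope, per the labels' protocols, so no doublet caller was run. The deposited values are raw read counts for each gene in each cell; molecular identifiers were not part of them. The submitters' processing notes name TopHat2 2.1.0, HTSeq 0.6.1, FastQC 0.11.3, edgeR 3.2.2 and the build GRCh38.p3. Neither the annotation release nor the strand setting is given in the sources used here. Of 36135 genes, 27391 were named by the gene name table and 7757 by GENCODE 29 only. Of the 414 samples, 401 cells were used; left out were 6 samples labelled as several cells, first runs of 2 cells that were repeated, 4 labelled cells without a matching column, and 1 repeat library in no group. The repeats of those 2 cells, labelled as batch 1 repeated in batch 2 sequencing, were kept in knockdown batch 1. In the table, 4 columns of values were not used.

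Counts were summed per arm and batch, since cells are not replicates, and tested by quasi-likelihood in edgeR 4.0.16 (R 4.3.3, limma 3.58.1; robust dispersions, TMM, filterByExpr, no covariates), two-sided, with Benjamini-Hochberg adjustment over 20326 genes at a threshold of 0.05. All adjusted p-values of edgeR, DESeq2 1.42.0 and limma are Benjamini-Hochberg adjusted over all genes each tested. Log2 fold changes are knockdown over control. Shares of cells were compared by exact permutation tests. The labels' batch numbers pair the libraries; after subtracting each arm's mean, libraries of the same batch correlated over genes at 0.0518, -0.00443 and -0.00281. The fit was checked on simulated data. The 38 genes and the lists were chosen with earlier results of these data known. Named were the immune genes, their counterparts, the other activators, every further called gene, the 4 highest and 4 lowest of the rest, and up to 4 genes of each list, called genes first and then the largest changes among genes averaging at least 5 CPM. PSMA4, TAP1, TAP2 and NLRC5 were named after their values were seen. Some called genes are not reported here.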

Additional observations from a re-analysis of the deposited data

How the results depend on the processing

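The count of genes called over the whole table, 158, was 309 with no filter on low counts, 38 with batch as a replicate block, 1442 by DESeq2, 1187 with equal weight per cell, and 46 to 69 with 1 library left out. Of these, 132, 26, 659, 684 and 29 to 39 were higher, and 177, 12, 783, 503 and 17 to 33 were lower. Among the 38 genes, calls numbered 0 with the block (PSMB9 and PSME1 were lost), 3 with no filter (PSME2 was added), 4 by DESeq2 (PSMA4 and PSME2 were added) and 5 with equal weight per cell (PSMB10, PSME2 and PSME3 were added). Besides the calls already given, the block ended those of IFNB1 and CXCL10 among named genes. With 1 library left out, 0 of the 38 passed, except PSMB9 without control batch 3. Fewer libraries entered each of these fits.

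Some directions reversed. The log2 fold change of PSMB8 was 4.06 with the block, 0.11 without knockdown batch 1 and 0.23 with equal weight per cell, and lay between -0.68 and 5.40 with 1 library left out, the highest without control batch 1. PSMD11 lay between -0.20 and 0.001 with 1 library left out (0.001 without control batch 2), and was at 0.10 with equal weight per cell, where PSMC6 was at 0.43 and RAD23B at 0.11. NFE2L2 lay between -0.14 and 0.032 with 1 library left out (0.032 without knockdown batch 3). The difference in the share of cells with a PSME1 read lay between -0.51 and 0.88 percentage points with 1 library left out, and was negative only without control batch 1. Without the highest cell of each library, an alternative chosen after seeing the data, the mean PSMB9 to PSMB6 ratio differed 20.3-fold and the PSMB8 to PSMB5 ratio 1.25-fold, against 12.8-fold and 0.794-fold with it. The cause of these changes was not tested. The log2 fold changes of the immune genes other than PSMB8 kept their direction under every setting run. PSMB8 had 0 to 417 reads per library.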

Other observations

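Co-detection of PSMB9 with other immune genes was also counted over the cells of each knockdown library, as a description. PSMB9 was read in 54.5%, 38.6% and 44.9% of the knockdown cells with a PSMB10 read in batches 1, 2 and 3, and in 36.4%, 19.05% and 16.7% of those without one. With NLRC5, an activator of class I genes, the shares were 76.5%, 39.1% and 52.4% of cells with an NLRC5 read and 38.8%, 28.6% and 32.5% of those without. With PSMB8, PSMB9 was read in 5 of 6, 7 of 10 and 3 of 5 knockdown cells that had a PSMB8 read. In control libraries only 3, 5 and 4 cells had a PSMB9 read, too few to describe.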
